A study of Mus musculus with 10 samples.

Results

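The oxidative phosphorylation genes described here were taken by symbol, as every gene whose name starts with Nduf, Uqcr, Cox4 to Cox8 or Atp5 or is Sdha, Sdhb, Sdhc or Sdhd. The pattern found 92 of the 22380 genes quantified, with 232 transcripts between them. They were placed by respiratory complex: 36 subunits of complex I and 7 of its assembly factors, 4 subunits of complex II, 8 of complex III, 20 genes of complex IV and 15 of complex V. The remaining 2, Atp5s and Atp5sl, carry the name of complex V but are not subunits of it. Cytochrome c1, cytochrome c, the subunits encoded by the mitochondrial genome and a few others do not match the pattern and are given as lists of their own.

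Oxidative phosphorylation is carried out in the inner mitochondrial membrane. Complex I oxidizes NADH and complex II oxidizes succinate, and both pass electrons through ubiquinone to complex III, then through cytochrome c to complex IV, where oxygen is reduced. Complexes I, III and IV pump protons, and complex V, the ATP synthase, uses their return to make ATP. Subunits come from both the nuclear and the mitochondrial genome. Germinal center B cells, which divide fast while they are selected for affinity, are known to rely on this pathway for part of their energy.

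The libraries are RNA-seq of germinal center B cells from C57Bl6/N mice 2 weeks after immunization with NP-OVA, a hapten coupled to ovalbumin. The 2 ZBTB38 WT libraries are Zbtb38fl/fl with no Cre, the 2 ZBTB38 HET libraries Zbtb38fl/+ x Vav-Cre and the 6 ZBTB38 KO libraries Zbtb38fl/fl x Vav-Cre. Vav-Cre drives recombination mainly in blood-forming cells, so Zbtb38, the gene of a zinc finger protein that binds methylated DNA, was targeted in hematopoietic cells at large and not in B cells alone. The floxed allele goes back to 1 founder made in C57Bl6/J zygotes and bred to C57Bl6/N, the WT mice carry no Cre, and the ages of the mice were not given in the sources used here.

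Totals ran from 27462439 to 41059082 estimated counts in WT, 28412924 to 32191770 in HET and 26612431 to 33894832 in KO. Zbtb38 was at 157 ± 7.02 CPM (counts scaled to library size) in WT, 112 ± 8.23 in HET (SD, n = 2 each) and 31.7 ± 10.8 in KO (SD, n = 6), an edgeR adjusted p of 0.073 between WT and KO. These counts cover the whole gene, of which only the exon with the coding sequence is floxed. The authors reported a complete loss of transcripts within that exon in KO. All 11 germinal center B cell markers were above 1 CPM in every library. Summed T cell markers were at 408 to 436 CPM in WT, 252 to 266 in HET and 296 to 402 in KO, and summed myeloid markers at 486 to 617, 93.8 to 105 and 82.6 to 802. Erythroid markers summed to 44.8 to 57.1, 35.5 to 38.8 and 56.1 to 96.5 CPM, plasma cell markers to 1379 to 1583, 1179 to 1270 and 1164 to 1746 CPM, and naive B cell markers to 1105 to 1155, 781.4 to 781.7 and 684 to 1554 CPM. No marker on these lists was at 0 in every library, and their part in the results below was not tested. KO replicate 6 stood furthest from the rest, with a median correlation of 0.946 with the other libraries against 0.966 to 0.979. In bulk samples, fewer cells of a type and less RNA per cell cannot be told apart.

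The oxidative phosphorylation genes were among the most abundant mRNAs of these cells. Levels between genes are compared in TPM, which divide by transcript length. The 87 members that passed the filter on low counts had a median of 318 TPM, against 12.0 TPM over all 14203 genes tested between WT and KO. Of them, 83 were above that median gene and 70 were above 129 TPM, the 90th percentile of all genes tested. Together the 92 genes took 1.4% to 2.04% of all estimated counts. Their order of abundance was stable, with a Spearman rho between 0.978 and 0.997 over the 45 pairs of libraries, a description across genes that are not independent replicates.

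**Figure D1:**
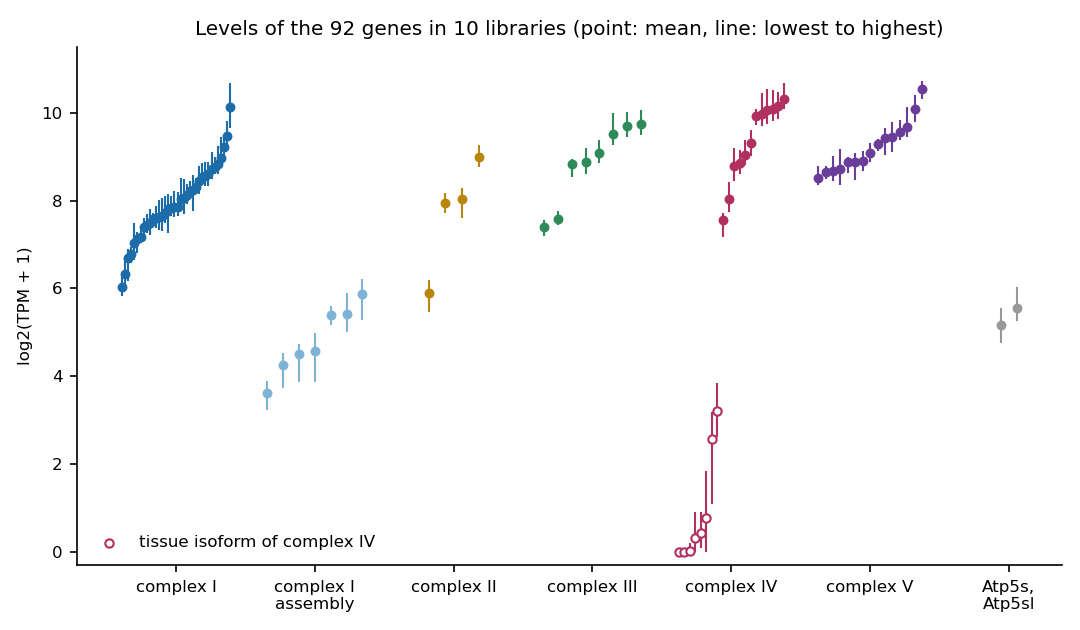
Levels of the 92 genes as log2(TPM + 1), by respiratory complex, with a point at the mean of the 10 libraries and a line from the lowest to the highest library. The subunits lie far above the open points of the tissue isoforms of complex IV, which average at most 8.23 TPM, and the complex I assembly factors lie between, at a median of 23.0 TPM.

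In complex I the highest member was Ndufa1, a small accessory subunit of the membrane arm, at 872 ± 90.6 TPM in WT, 1143 ± 157 in HET and 1211 ± 239 in KO. The lowest was Ndufa11, another accessory subunit, at 62.4 ± 4.94, 61.5 ± 6.58 and 65.5 ± 8.56 TPM. In TPM this is a 17.6-fold range of mean level within 1 complex, which rests on the division by transcript length. Ndufa1 has a transcript of 419 bases and Ndufa11 one of 2661. In CPM they lay closer, Ndufa1 at 124 ± 22.1 in WT, 160 ± 22.3 in HET and 193 ± 65.4 in KO. Ndufa11 was at 110 ± 10.4, 110 ± 13.4 and 129 ± 31.0 CPM. Complex III spanned 5.17-fold, from Uqcrc2, a core protein, at 156 ± 8.50, 171 ± 0.321 and 169 ± 13.3 TPM to Uqcr10, its small accessory subunit, at 739 ± 24.3, 812 ± 41.7 and 919.9 ± 108 TPM. In CPM their order was reversed, with means of 188, 210 and 225 for Uqcrc2 and 112, 122 and 156 for Uqcr10. Complex V was the most even at 4.08-fold, and its lowest member, the stalk subunit Atp5o, was still at 338 ± 19.6, 367 ± 0.259 and 373 ± 37.9 TPM. The 7 assembly factors of complex I, which help build it and are not part of it, had a median of only 23.0 TPM.

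The catalytic core was expressed in every library. Of the 7 nuclear-encoded core subunits of complex I, Ndufs1, which carries iron-sulfur clusters of the electron path, was the lowest at 110.2 ± 10.3 TPM in WT, 109 ± 12.4 in HET and 97.0 ± 13.1 in KO. Ndufs8, another iron-sulfur subunit, was the highest at 407 ± 14.9, 438 ± 53.2 and 439 ± 52.7 TPM. The flavin-binding Ndufv1 was at 136 ± 6.85, 147 ± 5.18 and 138 ± 17.1 TPM. Its partner Ndufv2 was at 287 ± 3.43, 326 ± 32.0 and 326 ± 32.4 TPM, close to Ndufs7 at 285 ± 31.3, 288 ± 9.80 and 306 ± 32.2 TPM. Ndufs3, a core subunit of the peripheral arm, was at 144 ± 8.10, 137 ± 0.932 and 143 ± 14.1 TPM. Ndufs8 was above Ndufs1 beyond their spread in every genotype, while Ndufs3 and Ndufv1 differed by no more than their summed SDs in WT and KO.

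In complex II, which also serves the citric acid cycle, the flavoprotein Sdha was at 262 ± 21.5 TPM in WT, 304 ± 7.21 in HET and 246 ± 31.2 in KO. The iron-sulfur subunit Sdhb was higher at 472 ± 12.7, 510.3 ± 7.61 and 523 ± 59.9 TPM, and the membrane anchor Sdhc was the lowest of the complex at 58.5 ± 2.47, 56.7 ± 2.96 and 58.8 ± 9.71 TPM. Uqcrfs1, the Rieske iron-sulfur protein of complex III, was at 181 ± 1.26, 195 ± 9.66 and 193 ± 17.2 TPM. The catalytic head of complex V alternates alpha and beta subunits. The beta subunit Atp5b was the highest of all members, at 1431 ± 117, 1624 ± 43.6 and 1462 ± 156 TPM, and the alpha subunit Atp5a1 was at 688 ± 55.4, 769 ± 2.51 and 656 ± 104 TPM.

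Among the genes of complex IV, the mRNA was mostly that of the common isoforms. Its 8 tissue isoforms had mean levels of at most 8.23 TPM, while the lowest other gene of the complex was at 186 TPM. Cox4i1, the common form of subunit 4, was at 914 ± 32.2 TPM in WT, 978 ± 37.5 in HET and 981 ± 117 in KO, whereas Cox4i2, known from lung, did not exceed 0.886 TPM in any library. Cox6a1 was the highest of the complex at 1110.3 ± 29.9, 1308 ± 2.55 and 1324 ± 186 TPM, and the muscle form Cox6a2 averaged 0.718 TPM. Cox6b1 was at 927 ± 40.8, 1103 ± 50.2 and 1126 ± 201 TPM, and its testis form Cox6b2 at 5.58 ± 1.73, 2.01 ± 1.04 and 5.77 ± 2.54 TPM. Cox8a was at 979.5 ± 43.5, 1191 ± 61.1 and 1165 ± 169 TPM. Its relatives Cox8b and Cox8c had 0 counts in all 10 libraries, and a count of 0 allows up to 3 counts in a library. Cox7b was at 225 ± 5.08, 244 ± 20.6 and 279 ± 45.1 TPM, and Cox7b2 was detected only in KO replicate 4, at 0.148 TPM. Ndufa4, once counted to complex I and now known as a complex IV subunit, was at 861 ± 40.97, 997 ± 15.9 and 1044 ± 192 TPM, against 0.0614 to 0.877 TPM for Ndufa4l2.

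The subunit 7a family was the exception, with more than 1 abundant gene. Cox7a2, the common isoform, made up 61.4% to 73.5% of the family's TPM and Cox7a2l, which takes part in joining complexes III and IV into supercomplexes, 25.0% to 37.3%. The muscle isoform Cox7a1 made up 0.749% to 2.04%. In level, Cox7a2 was at 380.0 ± 45.7 TPM in WT, 443 ± 21.7 in HET and 466 ± 73.0 in KO, Cox7a2l at 199 ± 17.4, 193 ± 22.4 and 179.6 ± 24.3 TPM, and Cox7a1 at 6.76 ± 0.812, 10.1 ± 4.47 and 8.08 ± 2.43 TPM. The ring of complex V, whose rotation couples proton flow to ATP synthesis, is built from subunit c, which 3 genes encode with the same mature protein. All of them were abundant, with Atp5g3 at 49.3% to 53.8% of the sum, Atp5g1 at 23.0% to 29.5% and Atp5g2 at 19.8% to 25.1%. Atp5g3 was at 979.8 ± 129.7, 1091 ± 4.36 and 1118 ± 149 TPM, Atp5g1 at 514 ± 36.7, 492 ± 11.53 and 572 ± 71.5 TPM and Atp5g2 at 448 ± 29.4, 525 ± 5.62 and 459.6 ± 72.1 TPM. The share of Atp5g2 was 22.5% and 23.7% in the WT libraries and 24.7% and 25.1% in the HET libraries. In the 6 KO libraries it was 19.8% at the lowest, 21.4% at the median and 22.6% at the highest. Atp5g2 shares runs of 645 and 441 bases with pseudogenes that were not quantified, and Atp5g1 shares a run of 384 bases with another. The shares within this family are therefore uncertain.

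Many genes of the respiratory chain carry promoter motifs for the nuclear respiratory factor NRF1, for ETS family factors such as GABP and for YY1, and these motifs were looked for in the 300 bases around each RefSeq start site, 250 before and 50 after it. A promoter was found for 73 of the 92 members. TGCGCA, the core of an NRF1 site, lay in 18 of the 73 members' promoters (24.7%) and in 8.79% of the promoters of all 27025 genes. The ETS core CCGGAAG, on either strand, lay in 17 (23.3%) against 9.93%, and the YY1 core AAGATGG, on either strand, in 10 (13.7%) against 7.28%. All 3 motifs together were found in 0 of the 73 promoters and in 0.163% of all. The promoters of all genes include those of genes not expressed in these cells, and the members were not compared with expressed genes alone. The windows of 30 bases below show 1 match each for core subunits, for Cox6a1 and for Atp5g2 (RefSeq, GRCm38.p6, 5′ to 3′ on the gene's strand, the motif in capitals). A match is a description of the sequence and not of binding.
Sdha, chr13:74350233-74350262, minus strand: gcgcgactcggTGCGCAagcgcagtctgtc
Cox6a1, chr5:115349058-115349087, minus strand: gacggataaagTGCGCAggcgctggagttc
Atp5g2, chr15:102671066-102671095, minus strand: ccggccgcgcaTGCGCAgagccttccctcg
Sdhb, chr4:140961266-140961295, plus strand: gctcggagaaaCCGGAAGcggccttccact
Ndufs3, chr2:90904730-90904759, minus strand: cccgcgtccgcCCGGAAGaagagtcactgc
Ndufs8, chr19:3912741-3912770, minus strand: ttaggctccgcCTTCCGGttgaaccgcatc
Ndufs7, chr10:80249462-80249491, plus strand: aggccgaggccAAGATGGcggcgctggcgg

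Each complex as a whole had a higher mean in KO than in WT, and KO and WT libraries overlapped in complexes I, II, IV and V. Both HET libraries lay above both WT libraries in all 5 complexes, and in complex II the HET mean of 1123 TPM was above the KO mean of 1079.7 TPM. Summed over its 36 subunits, complex I was at 9692 and 9368 TPM in the WT libraries, 10678 and 10115 in the HET libraries and 9612, 10882 and 13391 at the lowest, median and highest of the KO libraries. Complex II was at 1055 and 976 TPM in WT, 1117 and 1129.6 in HET and 927, 1093 and 1167 in KO. Complex III was at 3834 and 3672 TPM in WT, 4344 and 3977 in HET and 3911, 4426 and 5163 in KO. In summed TPM, here alone among the complexes every KO library lay above both WT libraries, while HET overlapped KO. In CPM, KO and WT overlapped in complex III too. The median deviation of its 8 genes from their log2 CPM means was −0.244 and −0.241 in KO replicates 2 and 4. It was −0.128 and −0.323 in the WT libraries. Complex IV was at 8176 and 7685 TPM in WT, 9287 and 8924 in HET and 7757, 9393 and 11572 in KO. Complex V was at 9275 and 8556 TPM in WT, 9855 and 9782 in HET and 8959, 9987 and 10950 in KO. Over all members the sums were 31427 ± 1256 TPM in WT, 34906 ± 945 in HET and 36296 ± 3895 in KO, and the KO libraries alone ran from 31604 to 42546 TPM. As shares of the summed TPM of the 5 complexes, complex I held 29.8% to 31.7% over the 10 libraries, complex II 2.64% to 3.39%, complex III 11.7% to 12.7%, complex IV 24.8% to 27.4% and complex V 25.9% to 28.97%. Complex V was above complex IV in both WT libraries, at 28.96% and 28.28% against 25.5% and 25.4%, and below it in KO replicate 1, at 25.9% against 27.4%. Complex IV was at 26.3% in both HET libraries.

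**Figure D2:**
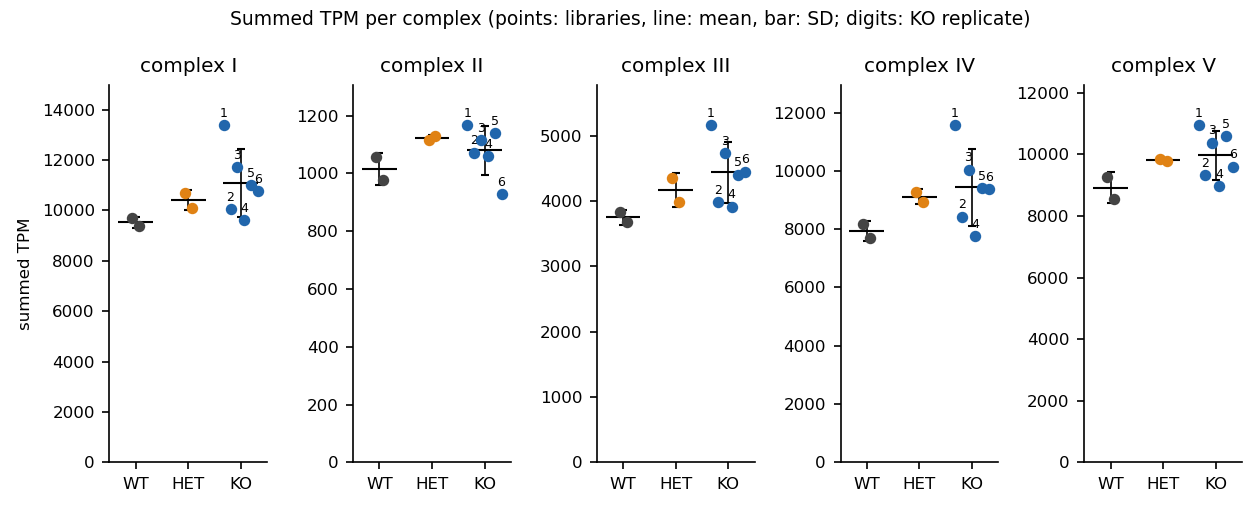
Summed TPM of each complex by genotype on axes that start at 0, with 1 point per library, a line at the mean, an SD bar and the replicate number of each KO library. In complexes I, II, IV and V the KO points overlap the WT points, and KO replicate 1 is the highest point of each complex.

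No member passed the test between WT and KO, which differ both in the loss of Zbtb38 and in carrying Vav-Cre. With edgeR's quasi-likelihood test at an adjusted p under 0.1, 0 of the 87 members tested were called, against 1 gene among all 14203 tested (0.00704%), and DESeq2 called 0 members as well. At an unadjusted p under 0.05, edgeR had 2 members higher in KO and 0 lower, where all genes tested gave 1.0% higher and 1.19% lower. This count rested on single libraries, with 0 members without WT replicate 2, 11 without KO replicate 2, 19 without KO replicate 4 and 1 or 2 without any of the others. In sign, 85 of the 87 log2 fold changes were above 0, against 51.8% of all genes tested. Their median was 0.347 (log2, KO over WT), against 0.014 over all genes, with a median SE of 0.236. KO and WT libraries did not overlap for 4 members, all higher in KO (Ndufaf1, Ndufaf4, Ndufv1 and Uqcrc2), against 2.68% of all genes tested, and for 0 members lower in KO, against 3.91%. The 95% interval of the fold stayed within 1.5-fold in either direction for 10 members and reached 2-fold for 22, so for these the depth and replication leave a change of that size within the interval.

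By complex, the median log2 fold change between WT and KO was 0.355 in complex I, 0.228 in complex II, 0.391 in complex III, 0.429 in complex IV and 0.297 in complex V. It was 0.327 over the complex I assembly factors. In complexes I and V the median of the core subunits was below that of the accessory ones, with ranges that overlapped and no test of the difference. The 7 core subunits of complex I had a median of 0.159, from −0.07 for Ndufs1 to 0.35 for Ndufv2, and its 29 accessory subunits a median of 0.398, from 0.04 for Ndufa10 to 0.69 for Ndufb2. In complex V the 5 core subunits had a median of 0.230 and the 7 stalk and accessory subunits 0.385, although the highest value of the complex, 0.55, was that of Atp5e, counted here to the core. The 11 common subunits of complex IV had a median of 0.429, from 0.25 for Cox4i1 to 0.51 for Cox6c, and Cox7a2l stood at 0.01. The subunits of these classes also differ in transcript length, with the core subunits of complex I at a median of 1046 bases and its accessory subunits at 698 bases.

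**Figure D3:**
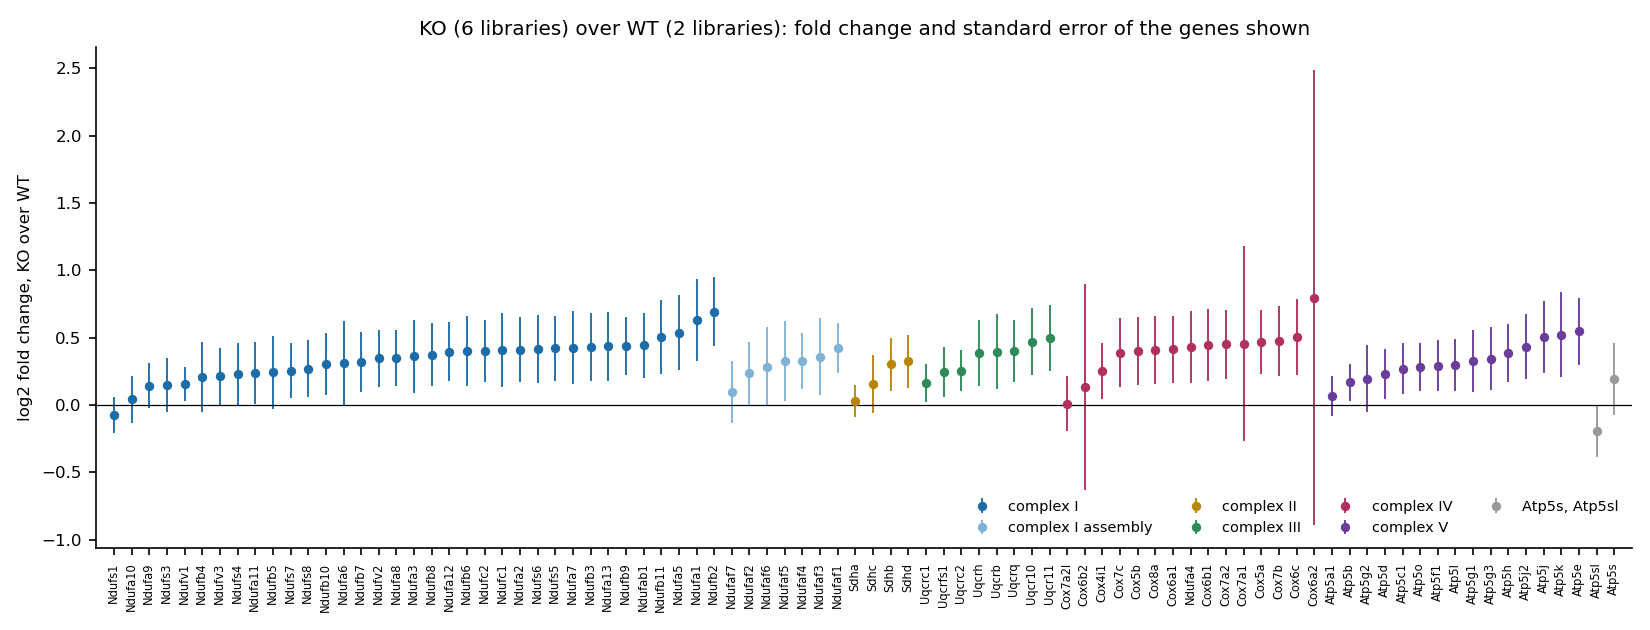
Log2 fold change of KO over WT for the members tested and reported (vertical axis), with its standard error as a line, by complex and in order of fold within it. All but Ndufs1 and Atp5sl lie above 0, and none passed the test.

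Ndufb2, an accessory subunit of complex I (ENSMUSG00000002416.13, chromosome 6, 39592574 to 39603382, plus strand, GRCm38), had the smallest p between WT and KO. It was at 47.7 and 36.6 CPM in WT, 52.7 and 50.8 in HET and 45.2, 67.5 and 88.4 at the lowest, median and highest KO library. The groups overlapped, since the lowest KO library was below the higher WT library. Its log2 fold change was 0.69 with an SE of 0.256 and a 95% interval of 0.127 to 1.26, and its edgeR adjusted p was 0.999. Transcripts of Ndufb2 share sequence with the overlapping gene Braf and with an antisense gene, and the library kit does not mark strand, so its counts are uncertain. Against WT and HET pooled its log2 fold change was 0.54 with an SE of 0.186 (edgeR adjusted p = 0.744).

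Ndufaf1, an assembly factor of complex I (ENSMUSG00000027305.9), was at 29.8 and 27.9 CPM in WT, 35.6 and 38.1 in HET and 31.5, 38.8 and 44.6 in KO. Every KO and every HET library was above both WT libraries, by a small margin in the lowest KO library. The log2 fold change was 0.42 with an SE of 0.184 between WT and KO (edgeR adjusted p = 0.999) and 0.35 with an SE of 0.209 for HET over WT (edgeR adjusted p = 0.826). Atp5e, the epsilon subunit of complex V, was at 85.9 and 74.7 CPM in WT, 104 and 97.1 in HET and 80.5, 120.0 and 167 in KO, a log2 fold change of 0.55 with an SE of 0.248 over WT. Ndufa1 was at 139.8 and 109 CPM in WT, 176 and 144 in HET and 124, 181 and 307 in KO, a log2 fold change of 0.63 with an SE of 0.305. For both genes WT and KO libraries overlapped, and the edgeR adjusted p was 0.999.

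Ndufb9, an accessory subunit of complex I, was at 128 and 108 CPM in WT, 128 and 116 in HET and 124, 156 and 214 in KO. Its log2 fold change was 0.44 with an SE of 0.213 over WT (edgeR adjusted p = 0.999) and 0.41 with an SE of 0.151 over WT and HET pooled (edgeR adjusted p = 0.744). The extremes of fold lay elsewhere. Cox6a2 had the highest log2 fold change over WT, 0.80, with an SE of 1.69 at a level near 0, between 0 and 1.05 CPM. Atp5sl, which is not a subunit of the synthase, had the lowest, −0.19 with an SE of 0.194, from 44.0 and 67.0 CPM in WT and 42.0, 46.7 and 57.3 CPM in KO. Both had an edgeR adjusted p of 0.999. The other gene below 0 was Ndufs1, at 163 and 178 CPM in WT, 165 and 184 in HET and 144, 163 and 178 in KO.

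With WT and HET pooled as 1 control group, which shares the KO and WT libraries with the comparison above, again 0 of the 86 members tested were called by edgeR at an adjusted p under 0.1, against 0.00749% of all 13347 genes tested. The median log2 fold change was 0.287 against 0.023 over all genes, with 82 values above 0 (52.8% of all genes). At an unadjusted p under 0.05, 12 members were higher in KO and 0 lower, where all genes tested gave 2.26% higher and 4.05% lower. The 12 were Ndufa2, Ndufa5, Ndufb2, Ndufb9 and Ndufs5 of complex I, its assembly factor Ndufaf4, Uqcr10, Uqcr11 and Uqcrq of complex III, Cox7b of complex IV, and Atp5j2 and Atp5l of complex V, and for none of the 12 did the KO libraries lie clear of all 4 control libraries. Without KO replicate 2 the count was 32 and without KO replicate 4 it was 43, while leaving out any of the other libraries gave 2 to 7. Over all members, KO and control libraries did not overlap for 0 higher and 0 lower, against 0.524% and 0.996% of all genes tested.

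Among the 5 members with the smallest p in this pooled comparison, Atp5l, subunit g of the membrane part of complex V, was at 104 and 106 CPM in WT, 95.5 and 92.6 in HET and 97.2, 131 and 165 in KO. Its log2 fold change was 0.37 with an SE of 0.141 (edgeR adjusted p = 0.744). Atp5l shares runs of sequence with 5 pseudogenes and an antisense gene, so its counts are uncertain. Ndufa5, an accessory subunit of complex I, was at 53.5 and 43.1 CPM in WT, 52.7 and 51.7 in HET and 51.0, 64.9 and 105 in KO, a log2 fold change of 0.48 with an SE of 0.198. Uqcr10 of complex III was at 121 and 104 CPM in WT, 127 and 117 in HET and 116, 147 and 214 in KO, a log2 fold change of 0.41 with an SE of 0.177. Both had an edgeR adjusted p of 0.744, and in each the lowest KO library lay among the controls.

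HET against KO sets 1 floxed allele against a pair, both with Vav-Cre, and used the same KO libraries. Of 87 members 0 were called by edgeR at an adjusted p under 0.1 (0.00697% of all genes), with a median log2 fold change of 0.227 against 0.068 and 78 values above 0 (56.3% of all genes). Zbtb38 itself was not called here, at a log2 fold change of −1.82 (edgeR adjusted p = 0.128), so the absence of calls says little. At an unadjusted p under 0.05, 1 member was higher in KO and 0 lower, against 4.76% and 5.46% of all genes. The count was 4 without KO replicate 4 and 0 without either HET library or without KO replicate 3. Libraries did not overlap for 2 members higher in KO (5.76% of all genes), Atp5l and Atp5s, and for 1 lower (8.12% of all genes), Sdha. Sdha, the subunit that oxidizes succinate, was at 531 and 463 CPM in WT, 611 and 574 in HET and 476, 502 and 551 in KO. Its log2 fold change was −0.22 with an SE of 0.109 for KO over HET (edgeR adjusted p = 0.514) and 0.25 with an SE of 0.135 for HET over WT (edgeR adjusted p = 0.804). HET was thus the highest group for Sdha, with no call. Atp5l had a log2 fold change of 0.45 with an SE of 0.187 for KO over HET (edgeR adjusted p = 0.447). Cox6b2 was at 1.01 and 1.52 CPM in WT, 0.223 and 0.579 in HET and 0.300, 1.58 and 1.86 in KO, with log2 fold changes of 1.79 (SE 0.871) for KO over HET and −1.65 (SE 0.977) for HET over WT. The edgeR adjusted p was 0.514 and 0.826.

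Between WT and HET, which differ both in 1 Zbtb38 allele and in carrying Vav-Cre, 0 of 87 members were called by edgeR at an adjusted p under 0.1 (0.00697% of all genes). Nor was Zbtb38 itself called, at a log2 fold change of −0.49 for HET over WT (edgeR adjusted p = 0.873). No member reached an unadjusted p under 0.05 in either direction, against 2.44% of all genes higher and 3.98% lower in HET. The median log2 fold change of HET over WT was 0.131 against −0.010, with 71 values above 0 (48.7% of all genes). It was 0.075 without WT replicate 2. With only 2 libraries a group the libraries did not overlap for 42 members higher in HET and 6 lower, against 23.5% and 24.5% of all genes tested. The 6 were Atp5l, Atp5s, Cox6b2, Ndufa10, Ndufb4 and Sdhc.

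Library by library, members of different complexes moved together, and the KO libraries differed among themselves. The deviation of a gene in a library is its log2(CPM + 0.5) less its mean over the 10 libraries. The median deviation of the members was −0.147 and −0.275 in the WT libraries and −0.058 and −0.096 in the HET libraries. In KO replicates 1 to 6 it was 0.602, −0.207, 0.193, −0.265, 0.088 and 0.167, a range of 0.867 within one genotype. The means of these medians were −0.211 in WT, −0.077 in HET and 0.097 in KO. The range of the KO libraries was thus wider than the differences between these means, and their SD was 0.314. Of 87 members, 82 were above their mean in KO replicate 1 and 82 in KO replicate 3, but only 5 in KO replicate 2 and 6 in KO replicate 4, which lay with the WT libraries at 5 and 7. The median deviation over all genes stayed between −0.044 and 0.022. Complexes I to V had the same sign in every library but KO replicate 6, where complex II stood at −0.038 beside 0.156 in complex I. Summed plasma cell markers in KO replicates 1 to 6 were at 1699, 1164, 1746, 1452, 1703 and 1670 CPM, lowest in KO replicates 2 and 4, where the members were also low, but they were at 1583 and 1379 CPM in WT. Summed erythroid markers were at 94.0, 56.1, 90.9, 72.4, 59.8 and 96.5 CPM in the same order, with KO replicates 1, 3 and 6 highest. Summed germinal center B cell markers were at 11508, 9616, 9419, 8642, 8394 and 9206 CPM in that order. They were highest in KO replicate 1, as the members were, but lowest in KO replicate 5, where the members stood at 0.088. In WT they were at 8748 and 9118 CPM and in HET at 9406 and 9301. The part of these markers in the members' deviations was not tested.

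**Figure D4:**
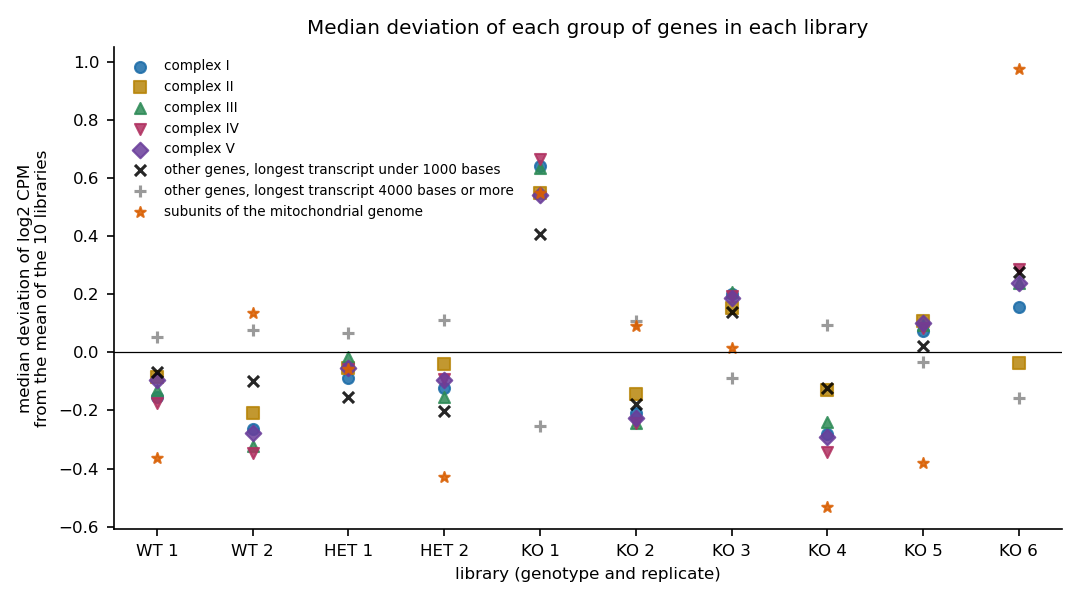
Median deviation of log2 CPM from the mean of the 10 libraries, for each complex, for other genes with short or long transcripts and for the subunits of the mitochondrial genome, with 1 column per library. The complexes lie highest in KO replicate 1, where all members have a median of 0.602, and KO replicates 2 and 4 lie with the WT libraries.

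The shift of KO replicate 1 was not limited to these genes, but it was larger in them than in other genes of like length. By the TPM-weighted length of the transcripts expressed, members under 750 bases stood at 0.652 in KO replicate 1 and other genes at 0.394. From 1000 to 1500 bases the values were 0.479 and 0.286. At 1500 bases or more the members stood at 0.215 and the other genes at −0.125. Oxidative phosphorylation genes have short transcripts, with a median longest transcript of 944.5 bases against 2619 over all genes. The 1013 other genes with transcripts under 1000 bases had median deviations of −0.067 and −0.100 in WT, −0.154 and −0.202 in HET and 0.409, −0.178, 0.140, −0.123, 0.024 and 0.278 in KO replicates 1 to 6. The 4759 genes of at least 4000 bases moved the other way in KO replicate 1, at −0.254, and in KO replicate 6, at −0.158. The length limits were chosen after the data had been seen, and the part of transcript length in the results was not tested. The median fragment length was 212.5 bases in KO replicate 6, 219.4 in WT replicate 1, where the members' median deviation was −0.147, and 228.7 in KO replicate 1. It was 235.06 to 242.1 bases in the other libraries, and its part in the results was not tested.

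Within the members the fold change followed length as well. Length here is that of the transcripts expressed, weighted by their TPM. The 44 members under 750 bases had a median log2 fold change between WT and KO of 0.404, the 14 from 750 to 1000 bases 0.317, the 15 from 1000 to 1500 bases 0.302 and the 14 of 1500 bases or more 0.125. In the same classes the other genes tested had medians of 0.268, 0.24, 0.143 and −0.033. In every class the members lay above the other genes, which is a description without a test. Over the 86 members with a mean of at least 1 TPM, Spearman's rho between length and fold change was −0.628 and that between length and the deviation in KO replicate 1 was −0.698, across genes that share libraries. Without KO replicate 1, the median log2 fold change of the members was 0.228 over WT, 0.156 over pooled controls and 0.117 over HET.

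**Figure D5:**
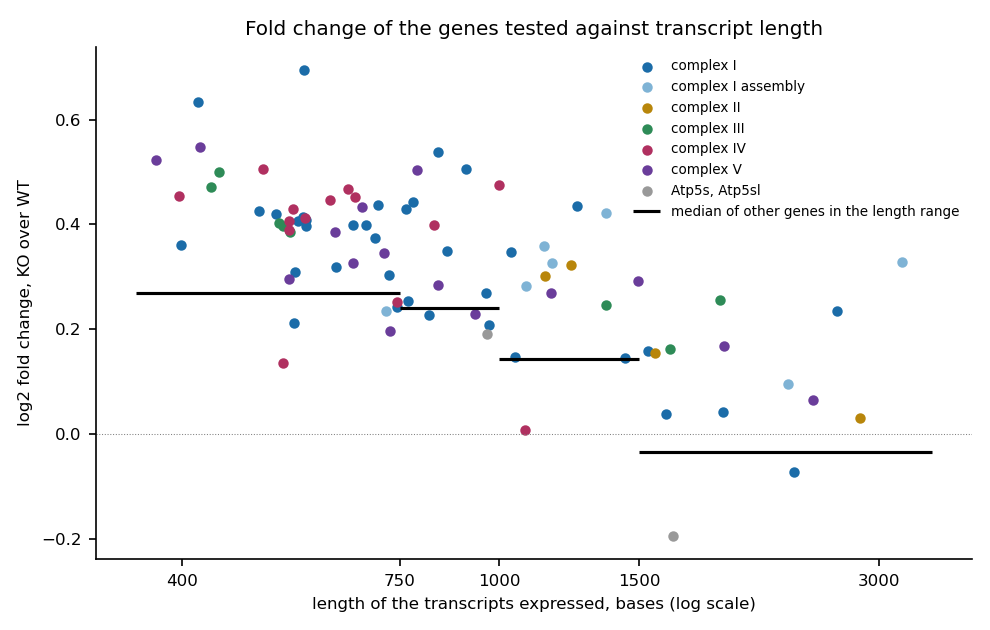
Log2 fold change of KO over WT of each member against the length of its expressed transcripts in bases (log scale), colored by complex, with black lines at the median of other genes in each length class. The medians of the members go from 0.404 under 750 bases to 0.125 at 1500 bases or more, and the black lines from 0.268 to −0.033.

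The rest of the pathway, from lists set with earlier results of these data known, was compared in the same fit of WT against KO, and no gene of them was called or reached an unadjusted p under 0.05. Of the 13 subunits encoded by mitochondrial DNA, 13 had a fold change above 0 with a median of 0.30, led by mt-Atp8, a subunit of complex V, at 0.51 (SE 0.406). Their deviations did not follow the nuclear genes library by library: they were at 0.977 in KO replicate 6 and 0.548 in KO replicate 1, but −0.380 in KO replicate 5, where the nuclear members were at 0.088. The 4 tested genes related to complexes III and V outside the symbol pattern (Cyc1, Cycs, Usmg5 and Atpif1) all had values above 0, with a median of 0.318. Cycs, the electron carrier cytochrome c, was at 0.51 (SE 0.249). Of 39 assembly factors, 30 were above 0, with a median of 0.114 and Coa3, a factor of complex IV, at 0.40 (SE 0.200). Of 14 regulators of mitochondrial biogenesis only 4 were above 0, with a median of −0.114 and the nuclear receptor Esrra at −0.43 (SE 0.247). Of 13 citric acid cycle genes 9 were above 0, with a median of 0.084 and Idh3a, a subunit of isocitrate dehydrogenase, at 0.16 (SE 0.139). The edgeR adjusted p of each gene named here was 0.999.

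In the genome the members lie on 19 chromosomes, with at most 10 on one, chromosome 7. The 6 members on chromosome 9 share it with Zbtb38. Runs of at least 100 bases identical to a gene elsewhere were found in transcripts of 19 members, which together matched 22 genes that were quantified and 43 that were not. How reads were split between such copies was not tested, and 20 members share such a run with a gene that overlaps their own locus.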

How the data were processed

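Genotype and replicate were taken from the sample labels. The authors made SMART-Seq v4 and Nextera libraries, sequenced them paired-end on a HiSeq 4000 and ran Salmon with the transcripts of Gencode vM17. Version 0.9.1 of Salmon is from the submitters' processing notes. The authors deposited estimated counts, which are not normalized, and TPM values, which Salmon derives from them and the effective transcript lengths. Both were summed per gene, and the counts were rounded to whole numbers. WT against KO and WT plus HET against KO were fitted on their own libraries, and the other comparisons on all 10, with edgeR 4.0.16 (quasi-likelihood test, TMM, filterByExpr, Benjamini-Hochberg over all genes at 0.1). Alternatives used DESeq2 1.42.0 and limma 3.58.1 in R 4.3.3, on log2(TPM + 1) and log2(TPM + 0.1) for limma. Descriptions and plots were made in Python 3.11.15 (matplotlib 3.10.9, pandas 2.3.3, numpy 2.4.6). The fits were tested on simulated data. CPM are TMM-normalized. Positions are those of Gencode vM21 (GRCm38).

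The members and gene lists were chosen with earlier results of these data known, and the length classes after their values were seen. The members named were, for each complex, the highest and lowest, the catalytic core, the isoform families, those with the smallest p and the extremes of fold. Totals between 26612431 and 41059082 counts limit precision by counting error only, since duplicates were not marked. No 2 libraries of a genotype agreed within sampling noise, with a chi-square per gene of at least 26.4. P-values measure the spread between mice. Values are mean ± SD. 1 gene is not reported here by itself.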

Additional observations from a re-analysis of the deposited data

Results flagged for a closer look

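In 4 of the 50 groups of 6 KO libraries checked, 1 library lay far from the others by Dixon's 95% limit, which chance passes in about 1 in 20 groups. The groups share libraries and are not independent. Ndufs1, an iron-sulfur subunit of complex I, was at 71.5 TPM in KO replicate 1, while the other KO libraries were at 98.8 TPM or more. In CPM, the unit of the tests, this library did not stand apart for Ndufs1, at 144 against 148 to 178 in the other KO libraries. The summed TPM of the complex I assembly factors was 169.8 in KO replicate 6, with the others at 218 or more. Cox4i2 was at 0.736 TPM in KO replicate 3, with the others at 0.182 or less, and Cox7b2 at 0.148 TPM in KO replicate 4, which rests on 1 count, with the others at 0.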

How the results depend on the processing

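In all alternatives of the 4 comparisons 0 members were called. Of 335 alternatives for 18 tests of named members, 330 kept direction and side of the threshold, with a lowest adjusted p of 0.232. The exceptions reversed sign between WT and KO: Atp5sl from −0.19 to 0.017 with the replicate number as a block and 0.140 without WT replicate 2 (leaving out single libraries gave −0.47 to 0.140), and Cox6a2 from 0.80 to −0.040 with limma on log2(TPM + 0.1), −3.11 with the block and −0.0059 without WT replicate 1 (leaving out single libraries gave −0.0059 to 2.59). The cause was not tested.

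Leaving out 1 library in turn, the members' median log2 fold change ran from 0.228 (without KO replicate 1) to 0.429 (without WT replicate 1) between WT and KO, 0.156 to 0.352 against pooled controls, 0.117 to 0.301 for HET against KO and 0.075 (without WT replicate 2) to 0.199 for HET over WT. Members at an unadjusted p under 0.05 in WT against KO ran from 0 (without WT replicate 2) to 19 (without KO replicate 4), with 11 without KO replicate 2, and against pooled controls from 2 (without WT replicate 2) to 43 (without KO replicate 4), with 32, 3 and 5 without KO replicates 2, 1 and 6. Other settings gave medians between WT and KO from 0.177 (limma on log2(TPM + 1) with no filter) to 0.430 (block). With limma on log2(TPM + 1) the median of all genes was at −0.136, against the members' 0.183.

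Only 2 replicate numbers are shared by all groups and the labels do not say that they pair mice. Deviations of same-numbered libraries correlated at −0.008 to 0.129. With the replicate number as a block the medians were 0.43, 0.375, 0.304 and 0.136 for WT against KO, pooled controls, HET against KO and WT against HET, and 6, 13, 0 and 0 members had an unadjusted p under 0.05. The block raised all genes called to 6 in WT against KO and 66 in WT against HET. DESeq2 called 10, 25, 504 and 162 genes in the 4 comparisons, where edgeR called 1 each. Depth limits the tissue isoforms of complex IV, whose values rest on few reads, and 2 libraries a control group limit all folds.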
